A study of Mus musculus with 14 samples.

Results

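The transcripts described here are 10 genes of the NRF2 pathway, which were read out in organoids grown from mouse small intestine. They are the rows of the deposited expression table that carry the symbols Nfe2l2, Keap1, Nqo1, Srxn1, Txnrd1, Gclc, Gclm, Slc7a11, Gpx2 and Hmox1. All 10 were found among the 18781 genes of the table, and all 10 were among the 12802 genes that passed the filter on low values (a mean of at least 10, or 3.32 on the log2 scale). The question was whether loss of the autophagy gene Atg16l1 in the epithelium is accompanied by higher NRF2 target transcripts, and whether this depends on Rnaseh2b, which encodes a subunit of the enzyme that removes ribonucleotides from DNA.

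The transcription factor NRF2, encoded by Nfe2l2, is bound in unstressed cells by KEAP1, an adaptor that leads it to ubiquitination and degradation. Oxidants and electrophiles modify KEAP1, and the autophagy receptor p62 (encoded by Sqstm1) can occupy it, so that NRF2 accumulates, pairs with small MAF proteins and binds antioxidant response elements. Its targets make glutathione, keep thioredoxin reduced and detoxify quinones and heme, and the intestinal epithelium uses them against food-derived and microbial compounds. Much of this control acts on the NRF2 protein, which was not measured here.

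RNA was sequenced from 14 organoid libraries without treatment. By the labels, the 4 WT libraries carried floxed alleles of both Atg16l1 and Rnaseh2b and no Cre, whereas the study's text on the sequencing names floxed Rnaseh2b alone for the controls. The 4 Atg16l1 ΔIEC libraries carried floxed Atg16l1 with Villin-Cre, the 2 Rnaseh2b ΔIEC libraries floxed Rnaseh2b with Villin-Cre, and the 4 Atg16l1/Rnaseh2b ΔIEC libraries both floxed genes with Villin-Cre. Villin-Cre deletes in intestinal epithelial cells, and all organoids grew in IntestiCult medium. Age and strain were not given in the labels. The controls therefore differ from the deletions in the presence of Cre, and, if the labels hold, from each single deletion in a further floxed gene.

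The values are normalized expression on a log2 scale, from -2.13 to 17.45, and the library medians lay between 7.57 and 7.65. The transformation is not stated, and low genes vary little on this scale, which understates their fold changes. The number of reads behind the values is unknown. Atg16l1 fell by 2.54 (log2) in Atg16l1 ΔIEC and by 1.07 in Atg16l1/Rnaseh2b ΔIEC relative to WT, and Rnaseh2b fell by 1.36 in Rnaseh2b ΔIEC and by 0.73 in Atg16l1/Rnaseh2b ΔIEC, so both targeted transcripts were less reduced in the double deletion than in the single ones. Atg16l1 in the double deletion stood at 8.37, 8.14, 8.57 and 8.47 in the 4 libraries, against 6.73 to 7.35 in Atg16l1 ΔIEC and 9.43 to 9.54 in WT. The epithelial markers Epcam, Cdh1, Krt8 and Vil1 had a summed level between 16.58 and 16.68 in all libraries, and 5 of the 8 stromal and immune markers in the table did not pass the filter on low values. By the library names, the WT libraries ran on lane 1, the single deletions on lane 2, and the double deletion on both (libraries 1 and 2 on lane 2, 3 and 4 on lane 1). No lane held both WT and a single deletion, so in those comparisons lane and genotype cannot be told apart within a lane, and a fit with the lane as a covariate takes the lane's size from the double deletion alone. Within genotypes of 4 libraries, libraries 1 and 2, and likewise 3 and 4, deviated from the genotype mean together (Pearson's r across genes 0.41 to 0.86 over 6 pairs), and nothing in the labels says that they came from separate cultures or animals, so p-values measure the spread between libraries, which may be technical. The 2 Rnaseh2b ΔIEC libraries are numbered 1 and 2 and formed 1 such pair where pairs were fitted. Comparisons with Rnaseh2b ΔIEC, and the difference of effects, may thus rest on 1 source of that genotype. Adjusted p throughout is from limma fitted on all 14 libraries with Benjamini-Hochberg adjustment over the 12802 genes, with a threshold of 0.05.

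Promoter sequences of 2 members are shown, those of Srxn1 and of Slc7a11, the member with the largest difference. The Slc7a11 sequence matches a second kind of element beside that of NRF2. Whether these matches bear on the members' values was not tested. The 250 bases before the start site are given 5′ to 3′ on the gene's strand, from RefSeq on GRCm38.p6, Srxn1 at chr2:152105274-152105523 on the plus strand and Slc7a11 at chr3:50443614-50443863 on the minus strand. Capitals mark matches to the letters TGACNNNGC or TGAGNNNGC, the core of the antioxidant response element, and TGATGNAA, the composite element that C/EBP and ATF4 proteins bind in the response to amino acid shortage, each searched on both strands. No match overlaps another in these sequences.
Srxn1: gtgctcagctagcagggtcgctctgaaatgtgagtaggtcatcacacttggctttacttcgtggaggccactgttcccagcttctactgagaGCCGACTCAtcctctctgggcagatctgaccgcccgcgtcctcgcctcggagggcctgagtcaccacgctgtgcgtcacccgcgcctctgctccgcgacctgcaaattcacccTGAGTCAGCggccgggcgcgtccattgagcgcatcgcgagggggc
Slc7a11: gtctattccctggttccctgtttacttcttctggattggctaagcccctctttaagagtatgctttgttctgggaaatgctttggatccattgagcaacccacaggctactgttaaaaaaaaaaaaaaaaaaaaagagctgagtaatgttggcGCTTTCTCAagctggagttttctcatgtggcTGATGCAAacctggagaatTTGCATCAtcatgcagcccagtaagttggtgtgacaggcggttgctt

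In the Srxn1 promoter the cores begin at bases -158 and -45 from the start site, and a further one lies behind the start site at base 29. The Slc7a11 promoter holds 1 antioxidant core at base -97 and 2 composite elements at bases -66 and -47. Windows from 250 bases before to 50 after the start site were listed for 8 of the 10 members. These were 10 windows, of which 3 belong to Txnrd1. An antioxidant core was matched in 5 of the 10 (those of Nfe2l2, Srxn1, Slc7a11 and Gclm and 1 of Txnrd1), against 27.8% of all 32851 windows, and the composite element in that of Slc7a11 alone, against 4.0% of all windows. A match is a description of the letters, and the windows of Nqo1, Keap1 and Gpx2 held none.

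The transcript of NRF2 itself differed little between genotypes, while that of its inhibitor was lower in all deletions. Nfe2l2 (chromosome 2, 75675513 to 75704641 on GRCm38) stood at 12.79, 12.74, 12.65 and 12.68 in WT, 12.55, 12.53, 12.80 and 12.71 in Atg16l1 ΔIEC, 12.76 and 12.79 in Rnaseh2b ΔIEC, and 12.76, 12.83, 12.74 and 12.73 in Atg16l1/Rnaseh2b ΔIEC. All genotypes overlapped with WT, and the difference of Atg16l1 ΔIEC from WT was -0.07 ± 0.05 (log2 fold change ± SE, adjusted p = 0.388). Keap1 (chromosome 9, 21229730 to 21239361) stood at 11.47, 11.50, 11.37 and 11.45 in WT and at 11.23, 11.19, 11.15 and 11.19 in Atg16l1 ΔIEC. It stood at 11.12 and 11.11 in Rnaseh2b ΔIEC and at 11.18, 11.30, 11.28 and 11.33 in Atg16l1/Rnaseh2b ΔIEC. Every library with a deletion was below every WT library, although the differences were small: Keap1 fell by 0.25 ± 0.04 in Atg16l1 ΔIEC (adjusted p = 0.000559), by 0.33 ± 0.05 in Rnaseh2b ΔIEC (adjusted p = 0.000325) and by 0.18 ± 0.04 in the double deletion (adjusted p = 0.00873). An antisense gene, Gm16754, overlaps Keap1 and is in the table, and whether reads were counted by strand is not stated, so reads of both may not be separable. With the lane as a covariate the Keap1 difference of Atg16l1 ΔIEC was -0.19 (adjusted p = 0.0588).

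**Figure D1:**
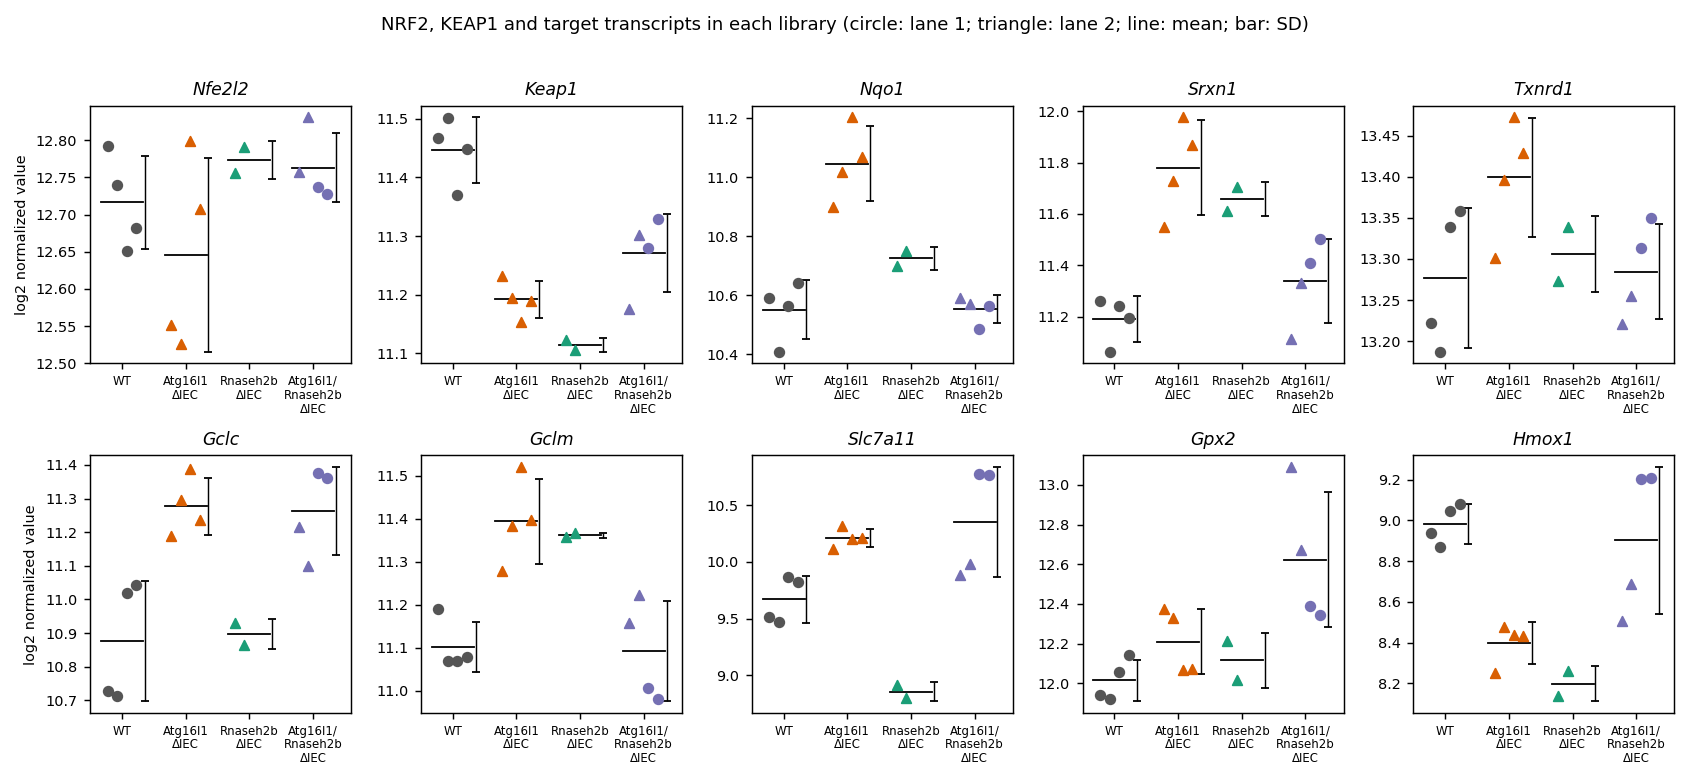
Log2 normalized value (y axis, own scale in each panel) of the 10 transcripts in 14 libraries of 4 genotypes (x axis), libraries in order of their number, circles for lane 1 and triangles for lane 2, line for the mean and bar for the SD. Nqo1, Srxn1, Gclc and Gclm of Atg16l1 ΔIEC lie above all WT libraries, and Slc7a11 of Rnaseh2b ΔIEC, at 8.80 and 8.92, lies below all other libraries.

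Loss of Atg16l1 alone was accompanied by higher transcripts for quinone reduction, sulfiredoxin and glutathione synthesis, and by a lower heme oxygenase transcript. In Atg16l1 ΔIEC against WT, 4 of the 10 members were called higher (Nqo1, Srxn1, Gclc and Gclm), against 8.73% of all genes tested, and 2 were called lower (Keap1 and Hmox1), against 10.4% of all genes. The median log2 fold change of the 10 was 0.24, that of all genes 0.00. Of the 8 members that are targets, 7 were on the higher side. Fitted with the paired libraries as a random block, Gclm (adjusted p = 0.0701) and Hmox1 (adjusted p = 0.0617) missed the threshold, which left 3 higher and 1 lower, and with the lane as a covariate 0 members were called lower (1, Keap1, had an unadjusted p under 0.05, limma).

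Nqo1 (chromosome 8, 107388225 to 107403206), the quinone reductase used as a standard readout of NRF2, stood at 10.59, 10.41, 10.56 and 10.64 in WT and at 10.90, 11.02, 11.20 and 11.07 in Atg16l1 ΔIEC. It stood at 10.70 and 10.75 in Rnaseh2b ΔIEC and at 10.59, 10.57, 10.48 and 10.56 in Atg16l1/Rnaseh2b ΔIEC. The 4 libraries of Atg16l1 ΔIEC were the highest of all 14, and the double deletion lay within the WT range. The rise in Atg16l1 ΔIEC was 0.50 ± 0.06 (adjusted p = 0.000191), and it was 0.44 with the lane as a covariate (adjusted p = 0.0181). The double deletion was 0.49 ± 0.06 below Atg16l1 ΔIEC, a log2 fold change of -0.49 (adjusted p = 0.000261), and -0.47 between the libraries that shared lane 2 (adjusted p = 0.00632).

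Srxn1 (chromosome 2, 152105516 to 152111376) encodes sulfiredoxin, which restores overoxidized peroxiredoxins. Its values were 11.26, 11.06, 11.24 and 11.19 in WT and 11.55, 11.73, 11.98 and 11.87 in Atg16l1 ΔIEC. They were 11.61 and 11.70 in Rnaseh2b ΔIEC and 11.11, 11.33, 11.41 and 11.50 in the double deletion. Both single deletions lay above all WT libraries, while the double deletion overlapped with WT. Srxn1 rose by 0.59 ± 0.09 in Atg16l1 ΔIEC (adjusted p = 0.000898) and by 0.47 ± 0.11 in Rnaseh2b ΔIEC (adjusted p = 0.00866), and the double deletion differed from WT by 0.15 ± 0.09 (adjusted p = 0.277). Txnrd1 (chromosome 10, 82833951 to 82897712), the cytosolic thioredoxin reductase, lay between 13.19 and 13.47 in all 14 libraries, and passed the test in no comparison. Its difference between Atg16l1 ΔIEC and WT was 0.12 ± 0.05 (adjusted p = 0.0915).

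Gclc and Gclm encode the catalytic and the modifier subunit of glutamate-cysteine ligase, the limiting enzyme of glutathione synthesis. Gclc (chromosome 9, 77754535 to 77794485) stood at 10.73, 10.71, 11.02 and 11.04 in WT and at 11.19, 11.30, 11.39 and 11.24 in Atg16l1 ΔIEC. It stood at 10.93 and 10.86 in Rnaseh2b ΔIEC and at 11.22, 11.10, 11.37 and 11.36 in the double deletion. All 8 libraries with Atg16l1 deleted were above all 6 libraries without that deletion. Gclc rose by 0.40 ± 0.08 in Atg16l1 ΔIEC against WT (adjusted p = 0.00537) and by 0.37 ± 0.10 in Atg16l1/Rnaseh2b ΔIEC against Rnaseh2b ΔIEC (adjusted p = 0.0189). WT libraries 3 and 4 were 0.31 above libraries 1 and 2, within 1 lane.

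Gclm (chromosome 3, 122245557 to 122270732) did not follow Gclc. It stood at 11.19, 11.07, 11.07 and 11.08 in WT and at 11.28, 11.38, 11.52 and 11.40 in Atg16l1 ΔIEC. It stood at 11.36 and 11.37 in Rnaseh2b ΔIEC and at 11.16, 11.22, 11.01 and 10.98 in the double deletion. Both single deletions were above all WT libraries, and the double deletion overlapped with WT. The rise was 0.29 ± 0.06 in Atg16l1 ΔIEC (adjusted p = 0.00439) and 0.26 ± 0.07 in Rnaseh2b ΔIEC (adjusted p = 0.0173). With the lane as a covariate the former was 0.10 (adjusted p = 0.433) and the latter 0.06 (adjusted p = 0.647). Across the 14 libraries Pearson's r between the 2 subunits was 0.10, that between Gclm and Nqo1 0.86, and that between Gclc and Slc7a11 0.82, where all values share their libraries and normalization.

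Slc7a11 (chromosome 3, 49892526 to 50443614) encodes the transporter that imports cystine for glutathione and is known as a target of both NRF2 and ATF4. It stood at 9.52, 9.47, 9.87 and 9.82 in WT and at 10.11, 10.31, 10.20 and 10.21 in Atg16l1 ΔIEC. It stood at 8.92 and 8.80 in Rnaseh2b ΔIEC and at 9.88, 9.99, 10.77 and 10.76 in Atg16l1/Rnaseh2b ΔIEC. No library of a single deletion overlapped with WT, but the difference of Atg16l1 ΔIEC from WT, 0.54 ± 0.18, missed the threshold (adjusted p = 0.0522). Slc7a11 fell by 0.81 ± 0.22 in Rnaseh2b ΔIEC (adjusted p = 0.0165). Libraries 3 and 4 of the double deletion, on lane 1, were 0.83 above libraries 1 and 2, on lane 2. Fitted with the lane as a covariate, the difference of Atg16l1 ΔIEC from WT was 1.37 (adjusted p = 0.000193) and that of Rnaseh2b ΔIEC from WT was 0.02 (adjusted p = 0.941). The part of the lane in these values was not tested.

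Gpx2 (chromosome 12, 76792333 to 76795554), the glutathione peroxidase of the gut epithelium, stood at 11.94, 11.92, 12.05 and 12.14 in WT and at 12.37, 12.33, 12.07 and 12.07 in Atg16l1 ΔIEC. It stood at 12.21 and 12.02 in Rnaseh2b ΔIEC and at 13.09, 12.67, 12.39 and 12.35 in the double deletion. The double deletion lay above all WT and Rnaseh2b ΔIEC libraries, and Atg16l1 ΔIEC overlapped with WT (0.20 ± 0.14, adjusted p = 0.333). Gpx2 lies within Fntb, a gene on the opposite strand that is also in the table. Hmox1 (chromosome 8, 75093621 to 75100589), the inducible heme oxygenase, stood at 8.94, 8.87, 9.05 and 9.08 in WT and at 8.25, 8.48, 8.44 and 8.43 in Atg16l1 ΔIEC. It stood at 8.14 and 8.26 in Rnaseh2b ΔIEC and at 8.51, 8.69, 9.20 and 9.21 in the double deletion. Both single deletions were below all WT libraries: Hmox1 fell by 0.58 ± 0.13 in Atg16l1 ΔIEC (adjusted p = 0.00951) and by 0.78 ± 0.16 in Rnaseh2b ΔIEC (adjusted p = 0.00448). Libraries 3 and 4 of the double deletion were 0.61 above libraries 1 and 2, and with the lane as a covariate the difference of Atg16l1 ΔIEC from WT was 0.03 (adjusted p = 0.899). Across all 14 libraries Hmox1 and Gclm had a Pearson's r of -0.85.

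In Atg16l1/Rnaseh2b ΔIEC against Rnaseh2b ΔIEC, Slc7a11, Hmox1, Gpx2, Gclc and Keap1 were higher and Gclm was lower. These were 5 of 10 members called higher, against 11.1% of all genes, and 1 called lower, against 14.4% of all genes, with a median log2 fold change of 0.07 against 0.00 for all genes. Slc7a11 rose by 1.49 ± 0.22 (adjusted p = 0.000779), the largest difference of any member in these 2 comparisons, and by 1.08 between the libraries that shared lane 2 (adjusted p = 0.000534). Hmox1 rose by 0.70 ± 0.16 (adjusted p = 0.00843) and Gpx2 by 0.51 ± 0.17 (adjusted p = 0.0396), Keap1 rose by 0.16 ± 0.05 (adjusted p = 0.0231), and Gclm fell by 0.27 ± 0.07 (adjusted p = 0.0155). Of these 6 members, Gclc was also called higher in Atg16l1 ΔIEC against WT, and Gclm, Hmox1 and Keap1 were called there in the opposite direction. Within lane 2 Hmox1 was higher by 0.40 (adjusted p = 0.0249) and Gpx2 by 0.77 (adjusted p = 0.0124), while Keap1 (adjusted p = 0.104) and Gclm (adjusted p = 0.105) missed the threshold. Gclc missed it as well with the lane as a covariate (adjusted p = 0.077).

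Nqo1 and Srxn1, which were higher after loss of Atg16l1 alone, were on the lower side here. All 4 libraries of the double deletion were below both Rnaseh2b ΔIEC libraries in each gene, but the differences of -0.17 ± 0.07 for Nqo1 (adjusted p = 0.103) and -0.32 ± 0.11 for Srxn1 (adjusted p = 0.0512) missed the threshold. Srxn1 passed it within lane 2 (-0.44, adjusted p = 0.0422) and with the lane as a covariate (adjusted p = 0.0161). The comparison rests on 2 Rnaseh2b ΔIEC libraries: without library 1 or without library 2 of that genotype only Slc7a11 stayed past the threshold, and Hmox1 had an adjusted p of 0.0788 and 0.0609. Fitted with the paired libraries as a random block, Slc7a11 (adjusted p = 0.00563) and Hmox1 (adjusted p = 0.0482) passed, and Gclc (0.0977), Gclm (0.13), Gpx2 (0.188) and Keap1 (0.248) had an adjusted p above the threshold.

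**Figure D2:**
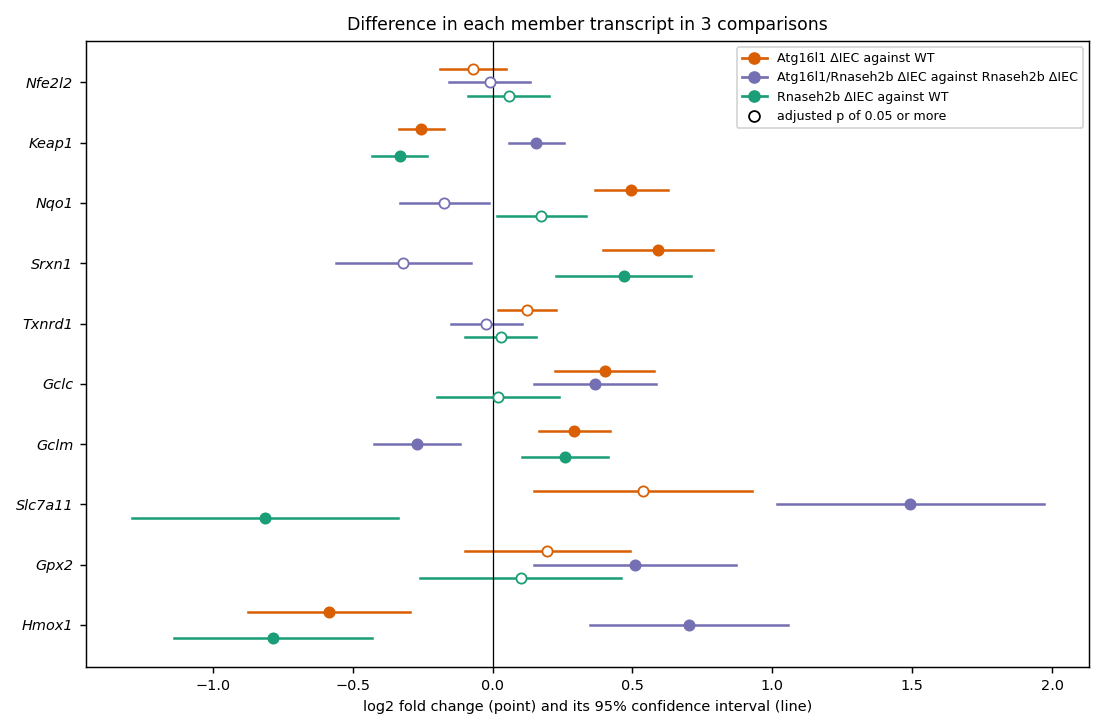
Log2 fold change (x axis) with its 95% confidence interval for each of the 10 transcripts (y axis) in 3 comparisons, filled where the adjusted p is under 0.05. Gclc lies to the right of 0 after loss of Atg16l1 in both backgrounds (0.40 and 0.37), whereas Gclm lies at 0.29 in one and at -0.27 in the other, and Slc7a11 lies at 1.49 in the Rnaseh2b-deleted background.

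The dependence on Rnaseh2b was tested directly, as the effect of Atg16l1 loss with Rnaseh2b deleted minus that without. The Atg16l1 transcript itself had a log2 fold change of -1.13 in the former and -2.54 in the latter. The difference of effects passed the threshold for 6 members. Of these, 3 were higher (Hmox1, Slc7a11 and Keap1) against 17% of all genes. The other 3 were lower (Srxn1, Nqo1 and Gclm) against 18.1% of all genes. The difference was 1.29 ± 0.21 for Hmox1 (adjusted p = 0.000712), 0.95 ± 0.29 for Slc7a11 (adjusted p = 0.0201) and 0.41 ± 0.06 for Keap1 (adjusted p = 0.000292). It was -0.91 ± 0.14 for Srxn1 (adjusted p = 0.000548), -0.67 ± 0.10 for Nqo1 (adjusted p = 0.0003) and -0.56 ± 0.09 for Gclm (adjusted p = 0.000681). For Gclc it was -0.03, with a 95% confidence interval from -0.32 to 0.25. Slc7a11 changed direction with the lane as a covariate, to -0.30 (adjusted p = 0.338). In the same fit Hmox1 (0.37, adjusted p = 0.135) and Gclm (-0.27, adjusted p = 0.12) lost the call and Gpx2 gained one (1.08, adjusted p = 0.0122). Slc7a11 also missed the threshold without library 1 or 2 of Rnaseh2b ΔIEC (adjusted p = 0.0543 and 0.0875).

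Against WT, Gclc, Slc7a11 and Gpx2 were higher in the double deletion and Keap1 was lower. These 3 of 10 members were called higher, against 8.1% of all genes, and Keap1 was called lower, against 8.01% of all genes, and the median of the 10 was 0.03. Gclc rose by 0.39 ± 0.08 (adjusted p = 0.00942), Slc7a11 by 0.68 ± 0.18 (adjusted p = 0.0244) and Gpx2 by 0.61 ± 0.14 (adjusted p = 0.0117). Between the libraries that shared lane 1 these were 0.49, 1.10 and 0.35 (adjusted p = 0.031, 0.00397 and 0.0198), while Keap1 missed the threshold (-0.14, adjusted p = 0.0717) and Srxn1 passed it (0.26, adjusted p = 0.0371). Gpx2 missed it with the lane as a covariate (adjusted p = 0.0696). Fitted with the paired libraries as a random block, 0 members passed: the adjusted p was 0.0883 for Gclc, 0.102 for Slc7a11, 0.119 for Gpx2 and 0.19 for Keap1, and 4 members had an unadjusted p under 0.05 (limma). Slc7a11 missed the threshold without library 1 or 2 of WT or library 3 or 4 of the double deletion (adjusted p = 0.0703, 0.0732, 0.0544 and 0.0512). The values of Nqo1 (0.00) and Gclm (-0.01) were at the WT level, with 95% confidence intervals from -0.13 to 0.13 and from -0.14 to 0.12.

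In Rnaseh2b ΔIEC against WT, 2 members were called higher (Srxn1 and Gclm), against 14.4% of all genes, and 3 lower (Keap1, Hmox1 and Slc7a11), against 12.3% of all genes. Fitted with the paired libraries as a random block, Srxn1 (adjusted p = 0.104), Gclm (adjusted p = 0.139) and Slc7a11 (adjusted p = 0.0515) missed the threshold, and with the lane as a covariate Srxn1 and Keap1 passed it. Without library 1 of Rnaseh2b ΔIEC only Keap1 remained past the threshold, and without library 2 only Keap1 and Hmox1. Against Atg16l1 ΔIEC, the double deletion had 2 members called higher (Gpx2 and Hmox1), against 12.6% of all genes, and 3 lower (Nqo1, Srxn1 and Gclm), against 12.5% of all genes. Gpx2 was higher by 0.41 ± 0.14 (adjusted p = 0.0415), with overlapping libraries, and missed the threshold in 8 of 14 fits that left out 1 library. Hmox1 was higher by 0.50 ± 0.13 (adjusted p = 0.0174), but by 0.20 within lane 2 (adjusted p = 0.114). Slc7a11 differed by 0.14 ± 0.18 over all libraries (adjusted p = 0.587) and by -0.28 within lane 2 (adjusted p = 0.0201).

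Among 10 further regulators of NRF2, the small MAF genes Maff and Mafk and the repressor gene Bach1 were called in several comparisons, and Sqstm1, which encodes p62, in none. Sqstm1 stood between 12.20 and 12.48 in WT, 12.45 and 12.57 in Atg16l1 ΔIEC, and 12.27 and 12.62 in the double deletion. These ranges overlapped (0.15 in Atg16l1 ΔIEC against WT, adjusted p = 0.189). Of the 10, 1 was higher and 2 were lower in Atg16l1 ΔIEC, against 8.73% and 10.4% of all genes. Mafk, a small MAF partner, rose by 0.29, Maff, another, fell by 0.53, and the kinase gene Gsk3b fell by 0.12. In the double deletion against Rnaseh2b ΔIEC 0 were higher and 2 were lower, against 11.1% and 14.4% of all genes. The 2 were Bach1, the repressor that competes with NRF2 at antioxidant response elements (-0.37), and Mafk (-0.32). There 1, Maff, was higher under an unadjusted p of 0.05 (limma). Against WT the double deletion had lower Bach1 (-0.33) and Gsk3b (-0.13), against 8.01% of all genes. In Rnaseh2b ΔIEC against WT, Mafk (0.33) and the ubiquitin ligase subunit gene Rbx1 (0.22) were higher, and Maff (-0.48), Nfe2l1 (-0.30) and Gsk3b (-0.14) were lower, against 14.4% and 12.3% of all genes. Against Atg16l1 ΔIEC, the double deletion had higher Maff (0.33) and lower Bach1 (-0.43) and Mafk (-0.28). Of all genes, 12.6% were higher and 12.5% lower there. The difference of the 2 effects passed the threshold for 6 of the 10, higher for Maff (0.81), Nfe2l1 (0.27) and Gsk3b (0.14), against 17% of all genes, and lower for Mafk (-0.61), Bach1 (-0.47) and Rbx1 (-0.26), against 18.1% of all genes. With the lane as a covariate 0 were higher and 4 lower in that difference, and with the paired libraries as a random block 1 was higher and 2 lower.

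Glutathione transferases, which conjugate glutathione to electrophiles, were higher in both single deletions and lower in the double deletion against either of them. In Atg16l1 ΔIEC against WT 10 of 17 were called higher and 0 lower, against 8.73% and 10.4% of all genes. The median was 0.31, and Gsta2 (0.71), Gstm1 (0.70) and Gsta1 (0.68) rose most. In the double deletion against Rnaseh2b ΔIEC 0 were called higher and 9 lower, against 11.1% and 14.4% of all genes. The median there was -0.32, and Gstm4 (-1.0), Gstm3 (-0.76) and Gstm1 (-0.73) fell most. The difference of the 2 effects passed the threshold for 11 of the 17, all lower, against 18.1% of all genes. Rnaseh2b ΔIEC against WT had 10 higher and 0 lower, against 14.4% and 12.3% of all genes. Gsta1 (1.15), Gstm4 (1.08) and Gstm3 (1.01) led these. The double deletion against WT had 4 higher and 0 lower, against 8.1% and 8.01% of all genes. Gsta1 (0.49), Gsta4 (0.35) and Gsto1 (0.33) led there. Under an unadjusted p of 0.05 (limma), 0 transferases were lower in either single deletion against WT, 0 were higher in the double deletion against Rnaseh2b ΔIEC, and 1, Mgst1, was lower in the double deletion against WT. With the paired libraries as a random block the counts were 4 higher in Atg16l1 ΔIEC against WT and 3 lower in the double deletion against Rnaseh2b ΔIEC, the latter also the lowest count when either Rnaseh2b ΔIEC library was left out. Among the Gsta and the Gstm genes, near-identical copies share reads, so the values of single genes in these families are uncertain.

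Of 23 other NRF2 targets tested, 10 were higher and 0 lower in Atg16l1 ΔIEC against WT, against 8.73% and 10.4% of all genes. The largest were Osgin1 (0.67), an oxidative stress response gene, Me1 (0.45), the NADPH-producing malic enzyme, and Cbr3 (0.45), a carbonyl reductase. In the double deletion against Rnaseh2b ΔIEC 3 were higher and 6 lower, against 11.1% and 14.4% of all genes. Those higher were Akr1b8 (1.03), the exporter gene Abcc1 (0.39) and G6pdx (0.13). Those lower were led by Osgin1 (-0.62), Ephx1 (-0.50) and the ferritin gene Fth1 (-0.31). The double deletion against WT had 6 higher and 0 lower, against 8.1% and 8.01% of all genes. The exporter gene Abcc4 (0.65), Ugdh (0.36) and the pentose phosphate gene Pgd (0.30) led these. Rnaseh2b ΔIEC against WT had 9 higher and 0 lower, against 14.4% and 12.3% of all genes. Osgin1 (0.66), Ephx1 (0.62) and Fth1 (0.59) led there. For 11 of the 23 the effect of Atg16l1 loss was lower with Rnaseh2b deleted, and for 0 it was higher. Over all genes these shares were 18.1% and 17%. Under an unadjusted p of 0.05 (limma), 0 other targets were lower in either single deletion, 2 (Blvrb and Gss) were lower in the double deletion against WT, and 2 (Abcc1 and Abcc4) had a higher effect with Rnaseh2b deleted. With the paired libraries as a random block 4 were higher and 0 lower in Atg16l1 ΔIEC against WT, and with the lane as a covariate 5 and 0.

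Of 16 antioxidant enzymes that are less tied to NRF2, 2 were higher in Atg16l1 ΔIEC and 0 lower, against 8.73% and 10.4% of all genes. The 2 were Gpx4 (0.19), the lipid peroxide reductase, and Txnrd2 (0.14), the mitochondrial thioredoxin reductase. In the double deletion against Rnaseh2b ΔIEC 0 were higher and 6 lower, against 11.1% and 14.4% of all genes. Glrx (-0.71), Gpx1 (-0.52) and Gpx4 (-0.39) fell most there. Rnaseh2b ΔIEC against WT had 5 higher and 0 lower, against 14.4% and 12.3% of all genes. Glrx (0.59), Gpx4 (0.35) and Cat (0.25) rose most there. The double deletion against WT had 1 lower, Gpx1 (-0.49), and 0 higher, against 8.01% and 8.1% of all genes. The difference of the 2 effects passed the threshold for 7 of the 16, all lower, against 18.1% of all genes. In the double deletion against Atg16l1 ΔIEC 8 transferases were lower, led by Gstm4 (-0.60), Mgst1 (-0.43) and Gstm1 (-0.43), as were 8 other targets, led by Osgin1 (-0.63), Me1 (-0.62) and Cbr3 (-0.43), and 7 antioxidant enzymes, led by Glrx (-0.35), Gpx1 (-0.27) and Msra (-0.27). There Abcc4 (0.71) was the only other target that was higher. Of all genes, 12.6% were called higher and 12.5% lower in that comparison. Under an unadjusted p of 0.05 (limma), 1 antioxidant enzyme, Gpx1, was lower in Atg16l1 ΔIEC against WT, 0 were lower in Rnaseh2b ΔIEC, 0 were higher in the double deletion against Rnaseh2b ΔIEC, and 1, Txn2, was higher in the double deletion against WT. With the paired libraries as a random block 0 antioxidant enzymes passed in Atg16l1 ΔIEC, and with the lane as a covariate 0 were higher and 1 lower.

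**Figure D3:**
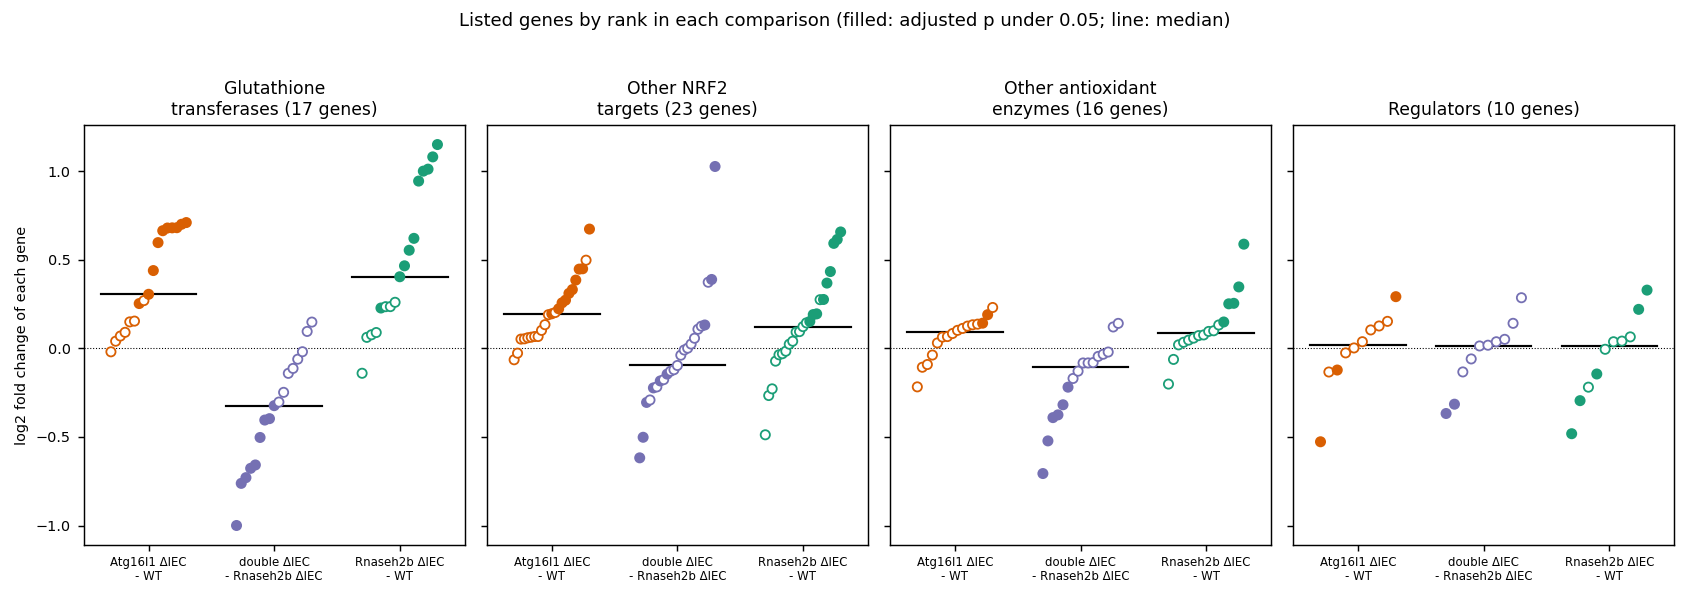
Log2 fold change (y axis) of every tested gene of 4 lists, ranked from low to high within each of 3 comparisons (x axis), filled where the adjusted p is under 0.05, with the median as a line. The transferases lie mostly above 0 after loss of Atg16l1 or Rnaseh2b alone (medians 0.31 and 0.40) and mostly below 0 after loss of Atg16l1 in the Rnaseh2b-deleted background (median -0.32).

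Markers of epithelial cell types moved with several of these comparisons. In bulk libraries fewer cells of a type and less RNA per cell cannot be told apart. Of 9 enterocyte markers, 8 were higher and 0 lower in Rnaseh2b ΔIEC against WT (median 1.03), against 14.4% and 12.3% of all genes. In the double deletion against Rnaseh2b ΔIEC 0 were higher and 8 lower (median -1.07), against 11.1% and 14.4% of all genes. The transferases were higher in the former comparison and lower in the latter. The summed level (log2) of the enterocyte markers was 16.94 to 17.53 in WT and at most 17.75 in Atg16l1 ΔIEC. It was 17.99 to 18.13 in Rnaseh2b ΔIEC and 16.78 to 17.21 in the double deletion. In Atg16l1 ΔIEC against WT, where the transferases were also higher, 8 of the 9 markers were on the higher side (median 0.24), and the ranges overlapped. By limma 0 of the 9 were called, whereas 8.73% of all genes were higher and 10.4% lower. Under an unadjusted p of 0.05, Fabp2 was higher and Anpep lower there. All 6 stem cell markers and 4 of 5 goblet markers were lower in that comparison (medians -0.52 and -0.61), against 10.4% of all genes. Against Rnaseh2b ΔIEC, in the double deletion, 4 of 5 goblet markers were higher (median 0.79), against 11.1% of all genes. Relative to WT, 4 of 6 Paneth markers were higher in the double deletion (median 0.60), against 8.1% of all genes. Against Atg16l1 ΔIEC, where Nqo1, Srxn1, Gclm and 8 transferases were lower, all 5 goblet markers (median 0.69) were higher in the double deletion. There 5 of 6 Paneth markers (median 0.69) and 4 of 6 stem cell markers (median 0.47) were also higher, against 12.6% of all genes. In these 3 lists 0 markers were lower there. Of the 9 enterocyte markers 0 were higher there and 2 lower (median -0.39), against 12.6% and 12.5% of all genes. In Rnaseh2b ΔIEC against WT, 3 of 5 goblet markers (median -0.61) and 3 of 4 tuft markers (median -0.39) were lower, against 12.3% of all genes. The part of these marker shifts in the values of the NRF2 targets was not tested.

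**Figure D4:**
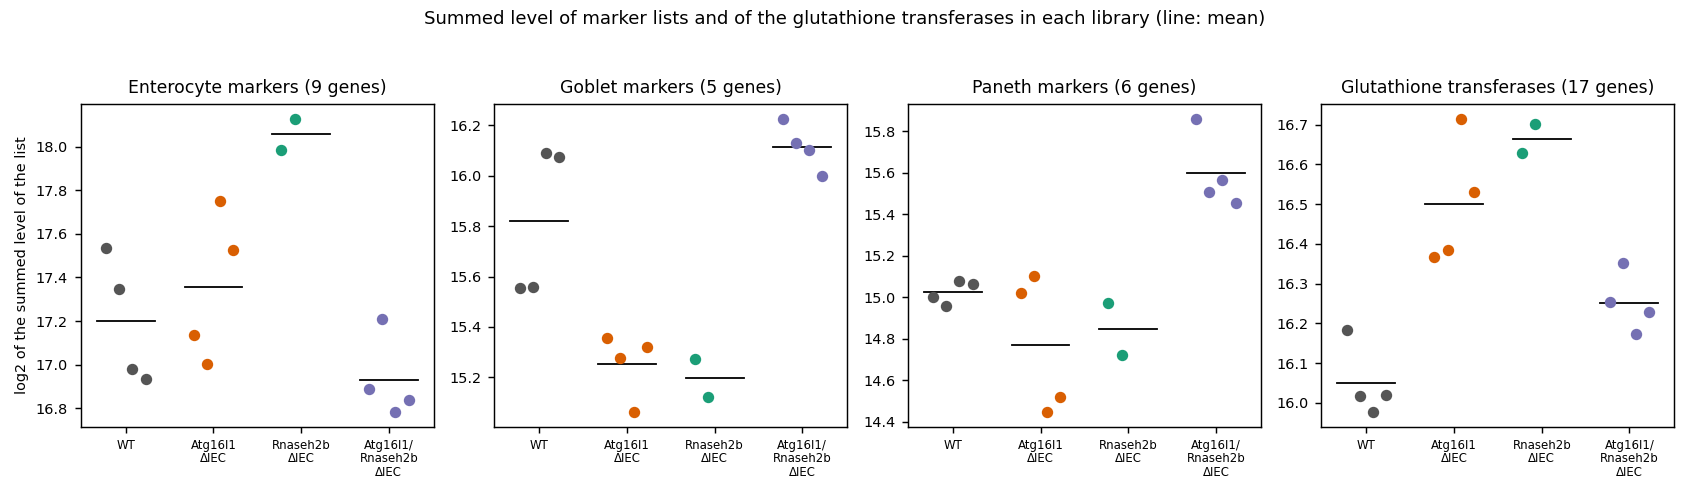
Log2 of the summed level (y axis) of 3 marker lists and of the 17 glutathione transferases in each library of the 4 genotypes (x axis), with the mean as a line. Both Rnaseh2b ΔIEC libraries have the highest enterocyte level, 17.99 and 18.13, and the transferases of all Atg16l1 ΔIEC and Rnaseh2b ΔIEC libraries lie above every WT library.

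Genes most like the target members were found from the mean z-score of the 8 targets, as a description over the 14 libraries. The mean z-score ran from -1.03 to -0.17 in WT, 0.14 to 1.0 in Atg16l1 ΔIEC, -0.42 to -0.34 in Rnaseh2b ΔIEC and -0.09 to 0.34 in the double deletion, and all 8 libraries with Atg16l1 deleted were above the other 6. The score averages members that moved in opposite directions. In the double deletion against Rnaseh2b ΔIEC, 4 of the 8 targets were on the higher side and 4 on the lower. The 5 genes with the highest Pearson's r to it were Zyx (0.92), Lrrc8d (0.91), Tbce (0.91), Slc35d1 (0.90) and Zfp788 (0.90). All values share their libraries and normalization.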

How the data were processed

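Organoid RNA was sequenced from TruSeq stranded mRNA libraries. By the study's methods, other Rnaseh2b ΔIEC libraries were removed for their read counts before analysis. Per the labels, cutadapt was used for trimming, TopHat2 for alignment to GRCm38, HTSeq for gene counts and DESeq2 for expression analysis. Versions are not given in the sources used here. The authors deposited normalized values on a log2 scale for 18781 genes in 14 libraries. Which transformation gave these values is not stated. Low genes vary little on this scale, which understates their fold changes. No column was left unmapped. Symbols and coordinates were taken from GENCODE M21 (99.7% of identifiers). The number of reads is unknown, so no count test was run.

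Samples were grouped by title. Genes whose mean over all libraries reached 10, or 3.32 in log2, were tested with limma 3.58.1 in R 4.3.3 (eBayes with trend) over all 14 libraries, in 5 comparisons of genotypes and 1 difference of effects, with Benjamini-Hochberg adjustment and a threshold of 0.05. Fold changes are differences of the deposited log2 values, with no pseudocount added. The script was tested on simulated data. A list's summed level is log2 of the sum of back-transformed values. The members, the other lists and the tests were chosen with earlier results of these data known.

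The named genes are the 10 members, Atg16l1, Rnaseh2b and Sqstm1, the 3 largest rises and falls past the threshold of each of the 4 other lists in each comparison, and the 5 genes most correlated with the mean z-score of the 8 targets. Regulators were 10, transferases 17, other targets 24 (1, Aox1, did not pass the filter) and other antioxidant enzymes 16. In Atg16l1 ΔIEC against WT, limma called 1 of 4 enteroendocrine markers (Chga) and 1 of 5 proliferation markers (Top2a) lower, and 0 of 4 tuft markers (1 with an unadjusted p under 0.05). Of all genes, 10.4% were called lower there. Same-numbered libraries of different genotypes showed no common direction of deviation (r from -0.50 to 0.44 over 18 pairs). The numbers were therefore not used to pair samples in the main fit, although a shared source is not excluded.

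Alternatives were other pseudocounts, filters and scalings, the lane as a covariate, single lanes, a replicate block, the compared groups alone, libraries 1 and 2 or 3 and 4 as a random block or averaged, and each library left out in turn.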

Additional observations from a re-analysis of the deposited data

Results flagged for a closer look

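Gclm in WT library 1 (11.19) stood apart from the other 3 WT libraries (11.07 to 11.08), by a gap of 0.92 of the group's whole range. Chance flags about 1 in 20 groups, and 30 groups of 4 libraries were examined over the 10 members. The effect of Atg16l1 loss differed with the state of Rnaseh2b, by a direct test of the difference (limma), for 6 members. With Rnaseh2b deleted minus without, it was 0.41 for Keap1 (adjusted p = 0.000292), 1.29 for Hmox1 (adjusted p = 0.000712) and 0.95 for Slc7a11 (adjusted p = 0.0201), and it was -0.67 for Nqo1 (adjusted p = 0.0003), -0.56 for Gclm (adjusted p = 0.000681) and -0.91 for Srxn1 (adjusted p = 0.000548).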

How the results depend on the processing

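The members' values were followed over 12 alternatives and 14 fits that each left out 1 library. Of these, 1385 stayed on the same side of the threshold, 106 lost the call, 25 gained one and 4 reversed. In all, 51 changed sign, and 47 of the 51 were uncalled in both fits and are counted among the 1385. The reversals were Hmox1 in Atg16l1 ΔIEC against WT (0.027), Slc7a11 in Rnaseh2b ΔIEC against WT (0.021) and Slc7a11 in the difference of effects (-0.30), all with the lane as a covariate, and Slc7a11 in the double deletion against Atg16l1 ΔIEC within a lane (-0.28). The cause was not tested.

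With the lane as a covariate, members called were 0 lower in Atg16l1 ΔIEC against WT, 3 higher in the double deletion against Rnaseh2b ΔIEC, 1 higher and 1 lower in Rnaseh2b ΔIEC against WT, and 1 higher in the double deletion against Atg16l1 ΔIEC. The members' median was then 0.16 for Atg16l1 ΔIEC against WT, 0.14 for the double deletion against WT, -0.14 for the double deletion against Atg16l1 ΔIEC and -0.28 for the difference of effects. Within a lane, 0 members were lower in the double deletion against WT (median 0.14), and 1 was higher and 5 lower in the double deletion against Atg16l1 ΔIEC (median -0.14). With only the groups compared, 2 members were higher and 2 lower in the double deletion against Rnaseh2b ΔIEC and 0 higher in the double deletion against Atg16l1 ΔIEC, and without a filter on low values 1 was higher there.

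The labels do not say whether same-numbered libraries share a source. Fitted with the replicate number as a block, 2 members were lower in the double deletion against Rnaseh2b ΔIEC. In the same fit 1 was higher in Rnaseh2b ΔIEC against WT. With libraries 1 and 2, and 3 and 4, as a random block (correlation 0.65), 1 member was lower in Atg16l1 ΔIEC against WT, 2 were higher and 0 lower in the double deletion against Rnaseh2b ΔIEC, 0 higher and 0 lower in the double deletion against WT, 0 higher in Rnaseh2b ΔIEC against WT, and 0 higher and 1 lower in the double deletion against Atg16l1 ΔIEC. Members with an unadjusted p under 0.05 (limma) were then 7, 5, 4, 5 and 5. With these pairs averaged, 0 members were higher and 0 lower in all 6 tests, and 4 to 6 had an unadjusted p under 0.05.

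Leaving out 1 library at a time gave 4 to 5 members higher and 2 lower in Atg16l1 ΔIEC against WT, 1 to 5 higher and 0 to 2 lower in the double deletion against Rnaseh2b ΔIEC, 0 to 2 higher and 1 to 3 lower in Rnaseh2b ΔIEC against WT, and 1 to 2 higher in the double deletion against Atg16l1 ΔIEC. The lowest counts involving Rnaseh2b ΔIEC came without its library 1 or 2, where the lone library is assumed to vary like the other groups.

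Over all genes, called counts (2450 in Atg16l1 ΔIEC against WT, 3262 in the double deletion against Rnaseh2b ΔIEC, 2063 in the double deletion against WT, 3424 in Rnaseh2b ΔIEC against WT, 3218 in the double deletion against Atg16l1 ΔIEC and 4499 in the difference) fell to 384, 692, 85, 728, 478 and 1553 with the random block and to 1, 0, 0, 0, 0 and 0 with averaged pairs (1579, 2044, 1311, 2103, 1944 and 2773 with an unadjusted p under 0.05). With the lane as a covariate they were 1586, 3466, 1418, 1504, 3976 and 2580. With the compared groups alone, the double deletion had 1260 against WT and 2065 against Atg16l1 ΔIEC, and within a lane 1311 against WT. Setting the library totals equal moved the double deletion against Rnaseh2b ΔIEC to 2377 higher of 3681.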
